A study of Mus musculus with 8 samples.

Results

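The Wnt ligands, their Frizzled receptors and their secreted inhibitors were followed across 8 arrays of E11.5 mouse embryos. Members were chosen by gene symbol alone: Wnt, Fzd, Sfrp or Dkk with a number, and Wif1. In all, 38 such genes had a probe set, of 18193 genes on the array that did. They comprise 19 Wnt ligands, 10 Frizzled receptors and 9 inhibitors. The inhibitors are 4 Sfrp genes, 4 Dkk genes and Wif1. RNA came from 4 origins, each with 1 control and 1 FAK mutant array. FAK, focal adhesion kinase, relays signals from integrins. One origin was cranial neural crest sorted for p75, the receptor encoded by Ngfr, with head and thorax tissue of 3 embryos pooled per array. The others are labelled LM, OFT and UM. The labels do not spell these out, do not say how many embryos each array holds, and give the embryonic day for them only through the series title. The FAK allele, any Cre driver, the strain and the genotype of the controls are not given in the sources used here. The FAK transcript itself was not analysed here, so the genotype labels have no check from the targeted gene.

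Wnt proteins are secreted lipid-modified ligands. They bind Frizzled receptors, and with the coreceptors Lrp5 and Lrp6 they stabilise beta-catenin, which drives transcription with TCF/LEF factors. Other Wnts, Wnt5a and Wnt11 among them, act largely through polarity pathways that do not need beta-catenin. Sfrp proteins and Wif1 bind Wnts outside the cell, whereas Dkk1 binds the coreceptors. In the embryo the pathway is known for inducing neural crest, shaping the facial prominences and remodelling the outflow tract of the heart.

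Promoter windows came from the RefSeq table (GRCm38.p6), and 3 are shown of the members that have one. Dkk1 and Wif1 are shown because they were called in both comparisons among OFT, LM and UM described below, each time lower. Fzd1 is shown as the member with the largest rise in OFT among those with a window. They were picked after their values were seen. Each window runs from 250 bases before to 50 bases after the annotated start and is written 5′ to 3′ on the gene's strand. Capitals mark the TCF/LEF word, which is CTTTGA, or the same with a final T in place of A (CTTTGT), and the TATA word, which is TATAAA. Each was searched on both strands, and a match on the other strand shows here as the reverse complement of the word. Dkk1 lies at chr19:30549447-30549746 on the minus strand, Wif1 at chr10:121033754-121034053 on the plus strand and Fzd1 at chr5:4758167-4758466 on the minus strand.
Dkk1: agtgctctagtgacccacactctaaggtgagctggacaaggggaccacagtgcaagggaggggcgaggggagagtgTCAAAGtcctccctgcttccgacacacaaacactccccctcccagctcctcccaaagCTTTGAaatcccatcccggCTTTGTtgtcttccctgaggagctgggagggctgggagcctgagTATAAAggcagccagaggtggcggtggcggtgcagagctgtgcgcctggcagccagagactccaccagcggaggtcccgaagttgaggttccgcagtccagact
Wif1: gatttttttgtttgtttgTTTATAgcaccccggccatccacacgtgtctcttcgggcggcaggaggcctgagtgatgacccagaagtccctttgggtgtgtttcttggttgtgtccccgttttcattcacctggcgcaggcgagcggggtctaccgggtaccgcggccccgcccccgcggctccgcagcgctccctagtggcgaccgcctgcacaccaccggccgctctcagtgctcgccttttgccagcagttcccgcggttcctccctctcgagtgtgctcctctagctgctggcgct
Fzd1: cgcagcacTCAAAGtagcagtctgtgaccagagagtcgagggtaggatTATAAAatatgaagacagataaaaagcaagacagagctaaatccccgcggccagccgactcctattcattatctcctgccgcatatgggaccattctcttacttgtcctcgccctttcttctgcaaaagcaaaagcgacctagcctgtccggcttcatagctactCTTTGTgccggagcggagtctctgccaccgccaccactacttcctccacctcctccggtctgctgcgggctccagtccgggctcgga

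In the Dkk1 window the TCF/LEF words began at positions -174, -117 and -98 from the start, and a TATA word at -54. In the Fzd1 window TCF/LEF words began at -242 and -37 and a TATA word at -202. The Wif1 window held no TCF/LEF word, and its TATA word, on the reverse strand, began at -232. Of the 38 members, 26 had a window, 29 windows in all. A TCF/LEF word was present in 8 of these 29, and in 31.2% of the 32851 windows of all genes. The word GGGCGG, a GC box searched on both strands, was present in 22 of the 29 windows and in 35.7% of all windows. The TATA word was present in 5 of the 29 and in 13.6% of all. The median GC content was 66.7% over the windows of members and 52.7% over all windows. These matches describe the letters only.

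Expression was read as linear intensity per probe set and compared as log2(intensity + 32), on which an intensity of 0 is 5 and differences of dim genes are understated. Each gene is represented by its brightest probe set. The arrays were alike in scale, with a median log2 value of 5.95 to 6.08. The p75 arrays stood apart in the Gapdh 3′ to 5′ ratio, at 2.82 and 4.91 against 0.700 to 0.986 on the other 6 arrays. They did not in that of Actb, at 1.57 and 1.65 against 1.42 to 1.94. RNA quality was not measured in any other way. Sox10, a defining crest marker, had an intensity of 1512 and 1620 on the p75 arrays and 25.3 to 57.5 elsewhere. Ngfr, the sorted marker, was at 1043 and 1422 there and at 47.0 to 149 elsewhere. Tnnt2, a cardiac troponin, was at 1998 and 2391 on the OFT arrays and at 5.35 to 143 on the others. In whole tissue, fewer cells of a type and less RNA per cell cannot be told apart.

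A gene was tested when 2 or more of the 8 arrays exceeded an intensity of 19.4, which is the 40th percentile of the values on all arrays. By this rule 31 of the 38 members were tested, of 13543 genes. Wnt1, Wnt2b, Wnt3, Wnt3a, Wnt8b, Wnt10b and Wnt16 were not, with intensities between 0.393 and 26.7. The tested members were thus 12 of the 19 ligands, all 10 receptors and all 9 inhibitors. In the tests of origins, the control and mutant array of an origin were its 2 samples. The model held a genotype term over all 8 arrays. The p-values thus rest on how the mutant minus control difference varies between all origins, p75 included, moderated over all genes.

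**Figure D1:**
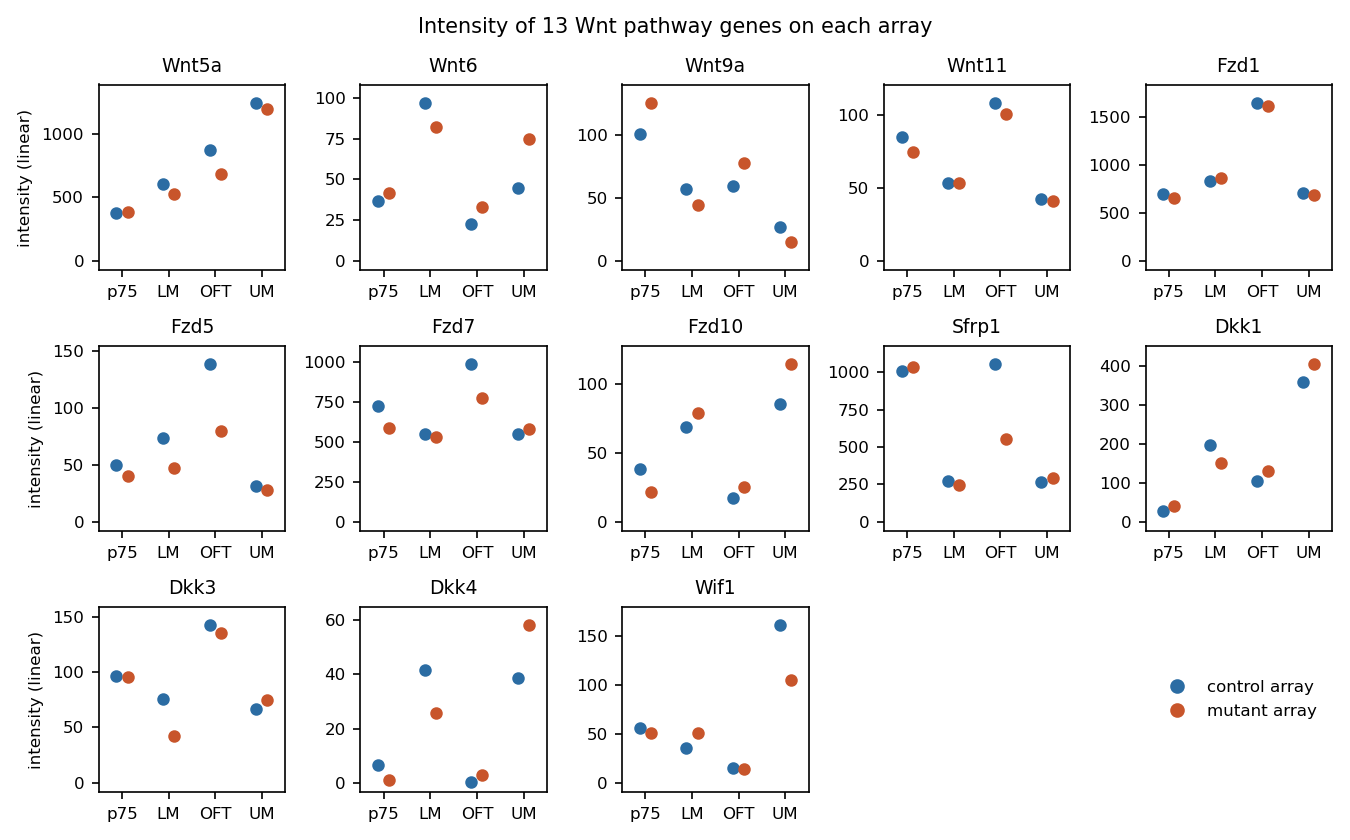
Linear intensity (y axis) of the 13 members called in OFT or in LM against UM, 1 panel per gene, by origin (x axis), with 1 point for the control and 1 for the mutant array. Each panel has its own scale. Wnt5a, Dkk1 and Wif1 lie highest on the UM arrays, and Fzd1, at 1643 and 1619, lies highest on the OFT arrays.

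The OFT arrays were set against the LM and UM arrays, each of these 2 origins weighing equally. Limma called 12 of the 31 members (38.7%) at a Benjamini-Hochberg adjusted p under 0.05, where it called 15.2% of all genes tested. Of these, 7 were higher in OFT (22.6%, against 11.3% of all genes) and 5 were lower (16.1%, against 3.89%). The median log2 difference was 0.04 over the members and 0.01 over all genes. By role, 2 ligands rose and 1 fell, 3 receptors rose and 1 fell, and 2 inhibitors rose and 3 fell. The OFT arrays of the called members lay outside the range of their LM and UM arrays, which a call in 2 against 4 arrays nearly requires. So did those of Fzd6, Wnt7b and Wnt9b, which were tested and not called. How many of all genes lay apart in this way was not counted.

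Among ligands, Wnt11, a polarity-type Wnt of the heart-forming region, had an intensity of 108 and 101 on the OFT control and mutant arrays, 53.4 and 53.5 in LM, 42.3 and 41.3 in UM, and 85.0 and 75.1 in p75-sorted cells. OFT was thus highest, and the p75 arrays came next. The OFT difference was 0.78 ± 0.15 (log2, moderated SE, n = 2 against 4 arrays; limma adjusted p = 0.0032). Wnt9a, a ligand known from joint and skeletal development, was at 60.1 and 77.9 in OFT, 57.1 and 44.7 in LM, 27.2 and 14.9 in UM, and 101 and 126 in p75-sorted cells. Its lower OFT array lay close to the LM control, and the difference was 0.61 ± 0.17 (limma adjusted p = 0.033). Wnt6, a ligand made largely by surface epithelium, was at 22.8 and 33.0 in OFT, 96.7 and 82.4 in LM, 45.0 and 75.1 in UM, and 36.6 and 41.9 in p75-sorted cells. It was lower in OFT by a log2 difference of -0.82 ± 0.17 (limma adjusted p = 0.0056). Wnt5a, by contrast, differed by -0.10 ± 0.15 on its brightest probe set and did not pass (limma adjusted p = 0.71, 95% interval -0.43 to 0.24). Its other probe sets gave -0.20, 0.36 and -0.49, so they were not alike in sign. The other 8 tested ligands had OFT differences of -0.48 for Wnt9b to 0.32 for Wnt2, and none passed.

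Of the receptors, Fzd1 was at 1643 and 1619 on the OFT arrays, 833 and 862 in LM, 714 and 685 in UM, and 694 and 653 in p75-sorted cells. Both OFT arrays stood above all others, with a difference of 1.05 ± 0.15 (2.07-fold, limma adjusted p = 0.00036). Its dimmer second probe set differed by 0.46 in the same direction. Fzd5, a receptor that can signal through beta-catenin, was at 138 and 80.2 in OFT, 73.5 and 47.5 in LM, 31.6 and 28.0 in UM, and 49.9 and 40.6 in p75-sorted cells. The OFT mutant lay near the LM control, and the difference was 0.88 ± 0.16 (limma adjusted p = 0.0029). Fzd7, at 986 and 777 in OFT against 533 to 579.5 on the LM and UM arrays and 725 and 590.4 in p75-sorted cells, differed by 0.63 ± 0.16 (limma adjusted p = 0.017). Fzd10 ran the other way. It was at 17.7 and 25.0 in OFT, 69.0 and 78.6 in LM, 85.3 and 114 in UM, and 38.2 and 22.0 in p75-sorted cells. The difference was -1.14 ± 0.17 (2.21-fold, limma adjusted p = 0.00069). The other 6 receptors lay between -0.26 for Fzd3 and 0.34 for Fzd6. For Fzd4, which was not called, the other probe sets lay apart in opposite directions, at 0.61 and -0.37.

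Sfrp1, a soluble Frizzled-related protein that binds Wnts, had the largest rise of the inhibitors. Its intensity was 1051 and 554 in OFT, 274 and 247 in LM, 267 and 290.2 in UM, and 1006 and 1031 in p75-sorted cells. On this probe set, its brightest, OFT and p75 arrays were high, LM and UM arrays low. The OFT difference was 1.40 ± 0.20 (2.65-fold, limma adjusted p = 0.00045), and its other 4 probe sets were also higher in OFT, by 0.37 to 1.14. Not all of these were high on the p75 arrays. A probe set at 218 to 564 on the other arrays was at 111 and 80.2 there. Dkk3, a divergent Dickkopf protein, was at 142 and 135 in OFT, 76.1 and 42.1 in LM, 66.3 and 74.5 in UM, and 96.3 and 95.8 in p75-sorted cells. It was higher in OFT by 0.83 ± 0.17 (limma adjusted p = 0.0055). Its second probe set, of like brightness, gave 0.43 (unadjusted p = 0.078), and on it the OFT control, at 86.7, lay below both UM arrays, at 95.5 and 98.7.

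The other 3 inhibitors called in OFT were lower there. Wif1, which binds Wnt ligands, was at 15.7 and 14.2 in OFT, 35.2 and 50.9 in LM, 161 and 105 in UM, and 55.6 and 51.0 in p75-sorted cells. The 2 OFT values were the lowest of the 8, and the difference was -1.23 ± 0.18 (2.34-fold, limma adjusted p = 0.00045). Dkk1, the coreceptor antagonist needed for head formation, was at 104 and 129.8 in OFT, 198 and 152 in LM, 360.4 and 405 in UM, and 27.3 and 41.1 in p75-sorted cells. OFT lay between the p75 and LM arrays. Its difference was -0.97 ± 0.17 (1.96-fold, limma adjusted p = 0.0019), and the second Dkk1 probe set differed by -0.50. Dkk4, a Dickkopf gene known as a target of beta-catenin signalling, was near background in OFT, at 0.450 and 2.83, and at 41.6 and 25.7 in LM, 38.6 and 58.1 in UM and 6.67 and 0.911 in p75-sorted cells. Its difference was -1.10 ± 0.18 (limma adjusted p = 0.0010). Sfrp2, which did not pass, was at 1326 and 769 in OFT and 652 to 898 on the LM and UM arrays.

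Without the OFT control array 5 members were called: Dkk4, Fzd1, Fzd10, Sfrp1 and Wif1. Adjusted p was then 0.080 for Dkk1, 0.085 for Dkk3, 0.15 for Fzd5, 0.33 for Fzd7, 0.089 for Wnt11, 0.13 for Wnt6 and 0.12 for Wnt9a (limma). Without the OFT mutant array 7 were called, and Dkk3, Fzd7, Wnt11, Wnt6 and Wnt9a had adjusted p of 0.088, 0.071, 0.053, 0.057 and 0.35. Fzd7 was also lost without the UM control (0.051), and Wnt9a without the LM mutant (0.066) or the UM mutant (0.095). A pseudocount of 1 in place of 32 gave limma adjusted p of 0.058 for Dkk3, 0.083 for Fzd7 and 0.098 for Wnt9a. Wnt9a was also lost with no filter on low values (0.053) and with the mean of all its probe sets (0.14). Calls over all genes also fell when either OFT array was left out, as given below. The counts of members here were not set against the share of all genes. The sizes of dim genes depend on the pseudocount. With a pseudocount of 1 the difference was -4.10 for Dkk4, -2.24 for Wif1, -1.97 for Fzd10, -1.36 for Wnt6 and 1.07 for Wnt9a, and with 16 it was -1.67 for Dkk4. With the mean of all probe sets it was -0.53 for Fzd10, 0.50 for Fzd5, 0.93 for Sfrp1 and 0.34 for Wnt9a.

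Markers of other cell types moved with OFT. All 6 cardiac muscle markers were higher there, with a summed intensity of 10634 and 11662 against 30.9 to 115 on the LM and UM arrays. All 4 smooth muscle markers were higher (5616 and 6122 against 110.1 to 947), as were all 5 endothelial markers (1001 and 1259.9 against 460.3 to 522). Of 7 neuron markers 5 were higher (3291 and 5009 against 572 to 1747), of 5 crest and glia markers 3 (951 and 1374 against 385 to 506) and of 3 macrophage markers 1 (465 and 639.6 against 301 to 319). Of 6 facial mesenchyme markers 4 were lower, with sums of 4909 and 4071 against 8324 to 10784. Of 8 surface epithelium markers 3 were lower and 1 higher, with sums of 1888 and 1853 against 1451 to 2718. Of 5 skeletal muscle markers 2 were higher (785 and 1009.7 against 56.3 to 689.9), of 5 neural tube markers 2 were lower (533 and 581 against 277 to 1004), and of 4 erythroid markers 1 was lower (19007 and 22972 against 27222 to 45172). Sox1 of the neural tube was near background on the OFT, LM and UM arrays, at most 2.58. The part of these cell types in the Wnt results was not tested.

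**Figure D2:**
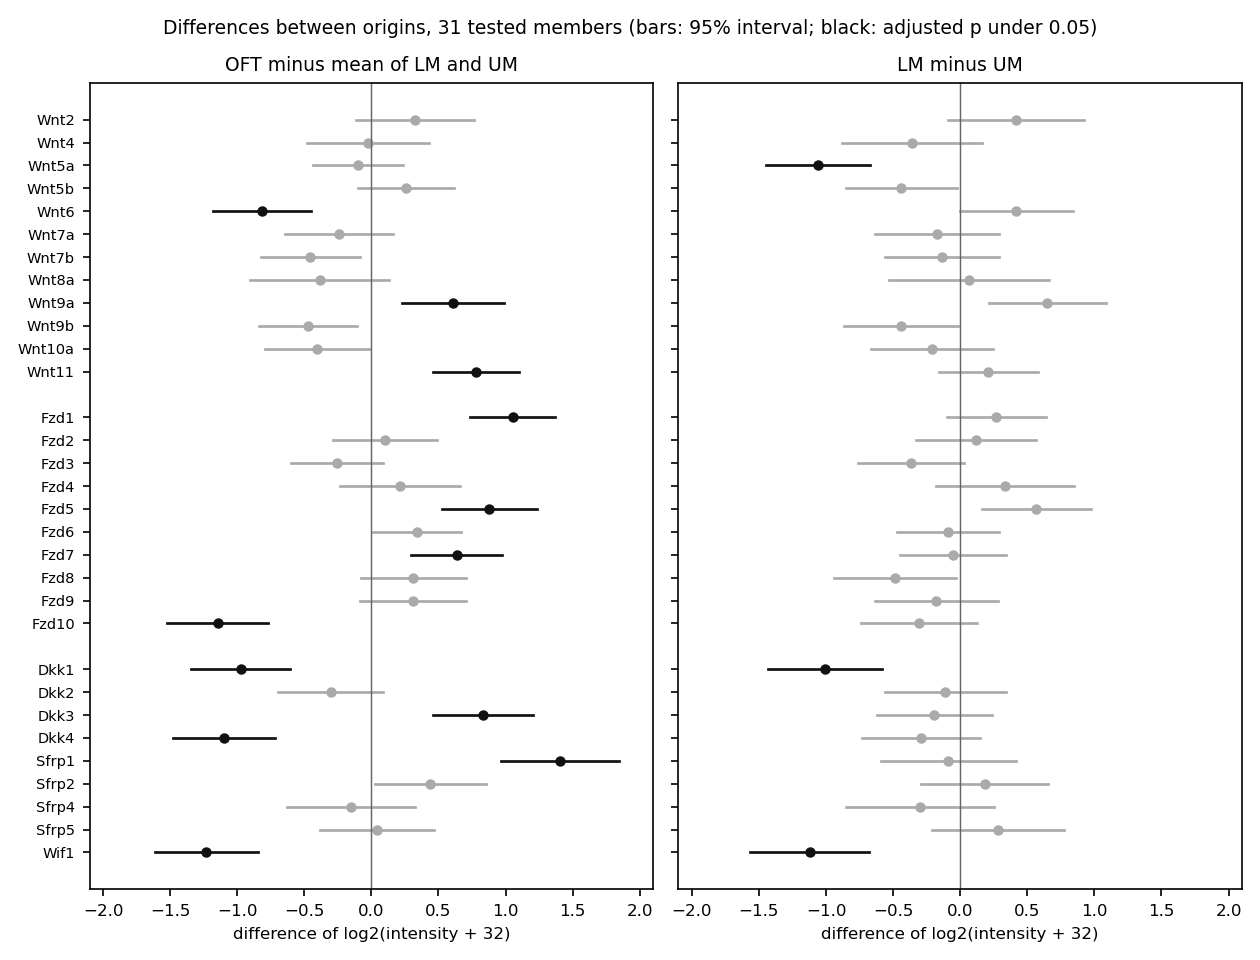
Difference of log2(intensity + 32) for the 31 tested members, OFT minus the LM and UM average on the left and LM against UM on the right, with 95% intervals from limma as bars and members past the adjusted threshold of 0.05 in black. In OFT, Sfrp1 at 1.40 and Wif1 at -1.23 lie farthest from 0, and in LM the 3 members in black all lie near -1.

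The rest of the pathway in OFT was read from 7 lists, beside the 15.2% of all genes called. Of the 15 tested feedback and target genes, 6 fell and 2 rose (53.3%), with a median of -0.26. Apcdd1, a membrane antagonist induced by Wnt signalling, was at 370.2 and 277 in OFT against 2169 to 2221 in LM and UM, and 1228 and 1471 in p75-sorted cells. The OFT arrays were far below the rest, with a difference of -2.66 ± 0.17 (6.31-fold, limma adjusted p = 4.2e-07). Lef1, a TCF/LEF factor and itself a target, was at 184 and 148 in OFT, 559.7 and 570.3 in LM, 959 and 955 in UM, and 204 and 278 in p75-sorted cells, a difference of -1.96 ± 0.17. Axin2, a scaffold of the beta-catenin destruction complex and a widely used target, was at 128 and 59.7 in OFT, 401 and 293 in LM, 277 and 356 in UM, and 362 and 350.1 in p75-sorted cells. Only the OFT arrays were low, and the difference was -1.57 ± 0.21 (limma adjusted p = 0.00024). Dact1, a binding partner of Dishevelled, rose by 1.18 ± 0.15. Apcdd1 also stands in the antagonist list and Lef1 in the nuclear list, and Twist1, 1 of the 6 that fell, also stands among the facial mesenchyme markers.

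Of 7 R-spondin axis genes 2 rose and 2 fell: Rspo3, a secreted enhancer of Wnt signalling, by 0.90, and its receptor Lgr4 by 0.67, with the receptor Lgr5 at -1.06 and Rspo2 at -0.59. Of 7 other antagonists, Cthrc1 rose by 1.05, and Apcdd1 and the Wnt-binding Frzb fell, Frzb with a difference of -0.65. Of 11 secretion and coreceptor genes, the coreceptors Lrp6 and Ptk7 rose by 0.58 and 0.57. Of 11 planar polarity genes, Prickle2 and Daam1 rose by 1.05 and 0.59. Of 11 nuclear genes, the corepressor Tle1 rose by 0.78 and Lef1 fell. None of 13 cytoplasmic core genes was called. The share called was 57.1% of the R-spondin list and 42.9% of the antagonists, and 18.2% of each of the secretion, polarity and nuclear lists, near the background. List medians were 0.18, 0.05, 0.38, 0.37, 0.05 and -0.02 in that order. Without the OFT control, limma adjusted p was 0.55 for Lrp6, 0.55 for Ptk7, 0.093 for Lgr4, 0.33 for Rspo2, 0.26 for Frzb, 0.15 for Daam1 and 0.46 for Tle1. The differences of Lrp6, Ptk7 and Tle1 were then 0.38, 0.37 and 0.48. Without the OFT mutant it was 0.069, 0.070, 0.21, 0.096, 0.086 and 0.20 for the first 6 of these, 0.069 for Rspo3 and 0.058 for Cthrc1. Lrp6 and Ptk7 were also lost when other single arrays were left out, Lrp6 at 0.082 without the LM control and 0.092 without the UM mutant. Ptk7 was at 0.070 without the LM mutant, 0.10 without the UM control, and 0.051 without either p75 array. With a pseudocount of 1, adjusted p was 0.14 for Lrp6, 0.11 for Ptk7, 0.082 for Lgr4, 0.079 for Rspo2, 0.084 for Frzb, 0.13 for Tle1 and 0.070 for Daam1. A pseudocount of 16 gave 0.072 and 0.058 for Lrp6 and Ptk7, and no filter 0.057 and 0.053. The mean of all probe sets gave Rspo2 -0.21 (0.30), Lgr4 0.35 (0.084), Lrp6 0.40 (0.059), Tle1 0.50 and Lgr5 -0.63, the latter 2 still called. Apcdd1, Axin2, Lef1, Lgr5, Dact1 and Prickle2 passed in every alternative run.

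LM was then set against UM. Limma called 3 of the 31 members (9.68%), against 1.55% of all genes. All 3 were lower in LM, where 0.812% of all genes were lower, and no member was among the 0.738% of genes that were higher. The median log2 difference was -0.14 over the members and -0.0049 over all genes. Both comparisons use the LM and UM arrays, so they are not independent of each other.

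Wnt5a, the polarity ligand needed for outgrowth of limbs and face, was at 607 and 529 in LM, 1241 and 1194 in UM, 874 and 687 in OFT, and 379 and 389 in p75-sorted cells. The order was UM, OFT, LM and p75-sorted cells, and no origin's arrays overlapped another's. The LM difference was -1.06 ± 0.18 (2.09-fold, n = 2 against 2 arrays, limma adjusted p = 0.0077). Its other 3 probe sets gave -1.34, -1.004 and -0.95. Wif1, at 35.2 and 50.9 in LM against 161 and 105 in UM, differed by -1.12 ± 0.20 (2.18-fold, limma adjusted p = 0.013). Dkk1, at 198 and 152 against 360.4 and 405, differed by -1.01 ± 0.20 (2.01-fold, limma adjusted p = 0.021), and by -0.77 on its second probe set. The arrays of both origins lay apart for these 3. They also lay apart for Fzd1, Fzd3, Fzd5, Fzd7, Fzd8, Fzd10, Wnt5b, Wnt6, Wnt9a, Wnt9b and Wnt11, which were tested and not called. With 2 against 2 arrays this says little, and how many of all genes lay apart was not counted.

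None of the 3 calls held throughout. With a pseudocount of 1, limma adjusted p was 0.12 for Wnt5a, 0.15 for Wif1 and 0.24 for Dkk1. Without the UM control it was 0.052, 0.19 and 0.11. Without the UM mutant it was 0.091 for Wnt5a and 0.16 for Dkk1, without the LM control 0.17 for Wif1, and without the LM mutant 0.18 for Dkk1. Dkk1 was also lost with a pseudocount of 16 (0.071) and with no filter (0.053). The directions held in all of these.

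The remaining members lay between -0.49 for Fzd8 and 0.65 for Wnt9a, and none passed. The widest 95% interval of a member reached 0.60 to either side of its estimate. Of the 7 lists, 2 held 1 called gene each, both higher in LM. Sostdc1, a secreted antagonist, differed by 0.92 ± 0.20 (limma adjusted p = 0.040), and Twist2, a mesenchymal transcription factor, by 0.99 ± 0.19 (adjusted p = 0.019). Without the UM control their adjusted p was 0.11 and 0.20. Without the UM mutant it was 0.30 for Sostdc1, without the LM mutant 0.28, and without the LM control 0.15 for Twist2. Leaving out either p75 array or either OFT array also ended the Sostdc1 call, at 0.074 and 0.076. With a pseudocount of 1 adjusted p was 0.26 for Sostdc1 and 0.18 for Twist2, with 16 it was 0.11 and 0.061, and with no filter 0.089 for Sostdc1.

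Markers of other tissues moved here too. Of 8 surface epithelium markers 3 were lower in LM, with sums of 1451 and 1547 against 2283 and 2718 in UM. Of 5 neural tube markers 3 were lower (284 and 277 against 1004 and 850.2), of 7 neuron markers 3 (572 and 1068 against 1747 and 990.5) and of 6 facial mesenchyme markers 2 (9746 and 8324 against 10237 and 10784). All 5 skeletal muscle markers were higher in LM, at 552 and 689.9 against 56.3 and 61.3, as were 1 of 6 cardiac and 1 of 4 smooth muscle markers. Their part in the differences of Wnt5a, Wif1 and Dkk1 was not tested.

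The p75-sorted cells were compared with the mean of LM, OFT and UM. Here limma called 14 of the 31 members (45.2%), close to the 47.1% of all genes called, so the count is no result about the members. Of them 7 were higher (22.6%, against 28.2% of all genes) and 7 lower (22.6%, against 18.9%). Sorting, the Gapdh 3′ to 5′ ratio and origin all differ between these 2 arrays and the other 6 and cannot be told apart. The Gapdh ratio alone does not settle whether RNA quality differs. The number of embryos on the other 6 arrays is not given, so whether pooling differs too is not known. All 5 crest and glia markers were higher there (sums of 7035 and 8903 against 385 to 1374). Among them is Ngfr, the sorted marker, whose rise the sort itself sets, and the sums include it. By contrast, 7 of 8 surface epithelium markers (576 and 472 against 1451 to 2718) and 4 of 6 facial mesenchyme markers (4395 and 4512 against 4071 to 10784) were lower. Of 7 neuron markers 6 were higher (3197 and 5617 against 572 to 5009), of 5 neural tube markers 4 (992 and 1466 against 277 to 1004), of 5 skeletal muscle markers 3, with 1 lower (713 and 1309 against 56.3 to 1009.7), and of 4 smooth muscle markers 2, with 1 lower (1743 and 2621 against 110.1 to 6122). Lower were 4 of 5 endothelial (195 and 207 against 460.3 to 1259.9), 4 of 6 cardiac (294 and 305 against 30.9 to 11662), 2 of 3 macrophage (168 and 140.4 against 301 to 639.6) and 2 of 4 erythroid markers (14888 and 17824 against 19007 to 45172). Their part in the differences of the members was not tested.

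Dkk1 differed most, at 27.3 and 41.1 in p75-sorted cells against 104 to 405 elsewhere, a difference of -1.82 ± 0.16 (3.54-fold, n = 2 against 6 arrays, limma adjusted p = 4.9e-06). Wnt5a, given above, was lowest in p75-sorted cells, at -1.02 ± 0.15, and its other 3 probe sets gave -2.25, -1.73 and -1.11. Sfrp2 was at 357 and 339.7 against 652 to 1326 elsewhere, a difference of -1.16 ± 0.18. These 3 were thus below all other arrays. Dkk2, a Dickkopf protein active in neural crest of the eye, was at 316 and 369 against 98.4 to 171, and was higher by 1.16 ± 0.17. Fzd8 was at 151 and 208 against 37.9 to 99.7, and was higher by 0.96 ± 0.17. Wnt9a was higher by 0.93 ± 0.16. For these 6 genes the call held in every alternative run.

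The other 8 called members depended on the probe set, an array or a setting. Sfrp1 was higher by 1.34 ± 0.19 on its brightest probe set, but the other 4 gave 0.43, -1.50, -1.18 and -0.01, and the mean of all 5 gave -0.19. Opposite probe sets of this kind, each at an unadjusted p under 0.05, occurred in 17.3% of the 6733 genes with several probe sets above the filter, against 2.23% in the OFT comparison. Of the 15 members with several, only Sfrp1 was such a gene in p75-sorted cells. Fzd4 and Fzd3, neither of them called, just missed that rule. Fzd4 was at 0.46 on its brightest probe set (limma unadjusted p = 0.053) and at -0.71 and -0.90 on its others. Fzd3 was at -0.29 on its brightest (limma unadjusted p = 0.058). Its other probe sets gave 0.65, 1.22, 0.40 and 0.33, and a dim one -0.19. Sfrp5, at 56.4 and 63.0 against 11.9 to 44.6, was higher by 0.62, Wnt5b, at 56.4 and 67.8 against 13.4 to 45.4, by 0.47, and Fzd2, at 1541 and 1895 against 1059 to 1467, by 0.46. The other 2 Fzd2 probe sets, at 1199 to 1736 in p75-sorted cells and 544 to 814 elsewhere, gave 1.18 and 1.14, and the mean of all 3 gave 0.93. Dkk4 was at -0.65, Fzd10 at -0.55 and Fzd1 at -0.54, with the intensities given above. Their p75 arrays overlapped those of OFT for Dkk4 and Fzd10 and of UM for Fzd1. They were thus lower than the mean of the other origins, not than each of them. Wnt4, a ligand of kidney and gonad development, was at 31.3 and 34.3 against 34.3 to 89.9, a difference of -0.55. Without the p75 mutant these 7 had limma adjusted p of 0.15, 0.15, 0.47, 0.14, 0.38, 0.094 and 0.19 in the order named. Without the p75 control, Sfrp5 was at 0.099, Wnt5b at 0.14, Wnt4 at 0.22, and Fzd1 and Fzd2 both at 0.050. Fzd2, Wnt4 and Wnt5b were also lost without some single arrays of the other origins, at 0.051 to 0.11. With a pseudocount of 1 the differences were -2.03 for Dkk4, -0.87 for Fzd10, 1.14 for Sfrp5, -0.89 for Wnt4 and 0.84 for Wnt5b, none of them called (limma adjusted p 0.058 to 0.099), and 1.43 for Wnt9a. Fzd2 was not called either (0.12). A pseudocount of 16 also ended the calls of Fzd2 and Wnt4 (limma adjusted p 0.069 and 0.052), as did no filter on low values (0.059 and 0.069). Quantile normalization ended that of Wnt4 (0.071). With the mean of all probe sets the differences were -0.88 for Fzd1, -0.29 for Fzd10 (0.061), 0.37 for Sfrp5 and 0.45 for Wnt9a. Fzd10 was at -0.85 without the p75 control and -0.25 without the p75 mutant, and Fzd2 at 0.25 without the latter.

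**Figure D3:**
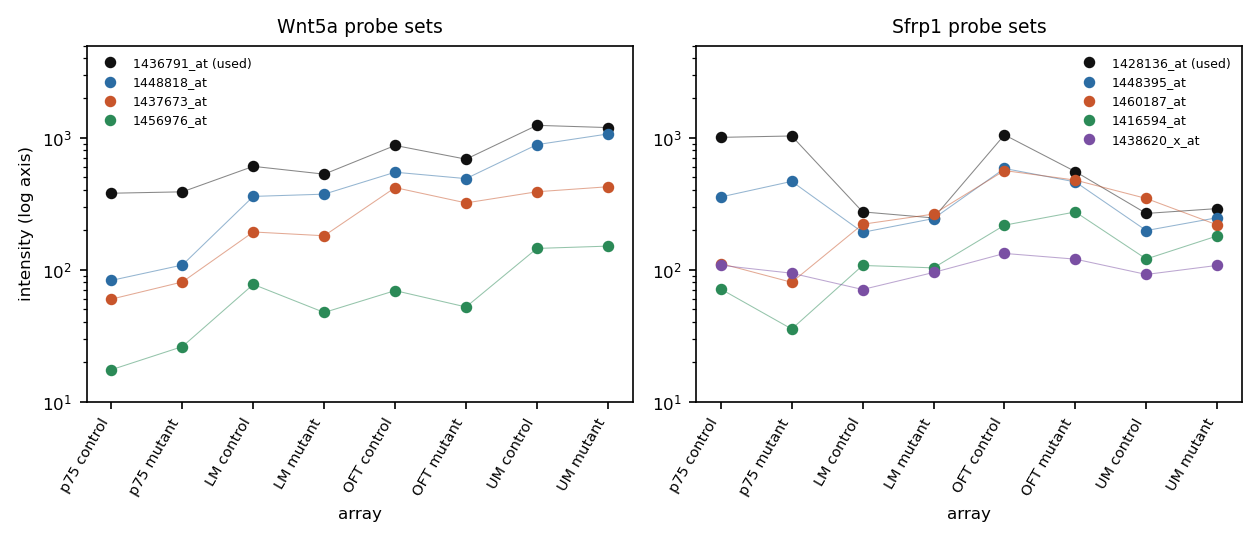
Intensity (log axis) of each probe set of Wnt5a, 4 in number, and of Sfrp1, 5 in number, on the 8 arrays, with the brightest and tested probe set in black. The Wnt5a probe sets all lie lower on the p75 arrays than on the UM arrays. Of the Sfrp1 probe sets, the brightest is high on the p75 arrays while 2 others are at their lowest there.

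The comparison of FAK mutants with controls asked whether any member changed with genotype over the 4 origins. Limma called 0 of the 31 members and 0% of all genes. At an unadjusted p under 0.05 there was 1 member, Fzd5, and 412 of all genes. Member differences ran from -0.32 for Fzd5 to 0.21 for Fzd8, with a median of -0.01, the same as over all genes. Their 95% intervals ran from -0.61 for Fzd5 to 0.59 for Sfrp4, which are 1.52-fold lower and 1.51-fold higher. No gene of the 7 pathway lists was called either.

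Fzd5 was lower in the mutant of every origin. Its intensity fell from 49.9 to 40.6 in p75-sorted cells, from 73.5 to 47.5 in LM, from 138 to 80.2 in OFT and from 31.6 to 28.0 in UM. The log2 differences were -0.17, -0.41, -0.60 and -0.08, and their mean -0.32 ± 0.13 did not pass (limma unadjusted p = 0.034, adjusted p = 0.9997). Its second probe set, near background at 1.88 to 19.5, ran the other way, higher in the mutant of every origin with a mean of 0.17, and the mean of both probe sets gave -0.07. Among the 31 members it was the 1 with the same sign in 4 of 4 pairs, as were 9.16% of all genes.

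Within an origin 1 mutant array meets 1 control array, so differences carry no test. In p75-sorted cells 0 of 31 members differed by at least 1.5-fold, against 5.78% of all genes. In LM 4 did (12.9%, against 7.96%): Wnt4 was higher in the mutant, at 74.9 against 34.3, and Fzd4, Wnt7a and Wnt8a were lower. A further Wnt4 probe set, of like brightness, ran the other way in LM, at 48.3 against 53.2. For Fzd4 a further probe set was also lower in the LM mutant, at 181 against 263, and a dimmer one higher, at 61.5 against 30.2. In OFT 3 members differed by at least 1.5-fold (9.68%, against 3.86%), all lower in the mutant. Sfrp1 was at 554 against 1051, Sfrp2 at 769 against 1326, and Fzd5 as given above. For Sfrp1 the next brightest probe sets showed a smaller gap, at 462 against 585 and 477 against 564, and a dimmer one ran the other way, at 274 against 217. In UM 3 did (9.68%, against 4.59%), all higher in the mutant: Sfrp4 at 69.0 against 26.8, Wnt2 at 21.3 against 0.815, and Wnt8a at 24.4 against 1.83.

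Sex-linked transcripts differed within the p75 and OFT pairs. Xist was at 21.0 on the p75 control and 2247 on the p75 mutant, and at 4368 to 5032 on the other 6 arrays. Eif2s3y, on the Y chromosome, was at 6.20 on the OFT control and 151 on the OFT mutant, and at 79.4 to 386 on the other 6. Their part in the genotype differences of those origins was not tested.

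**Figure D4:**
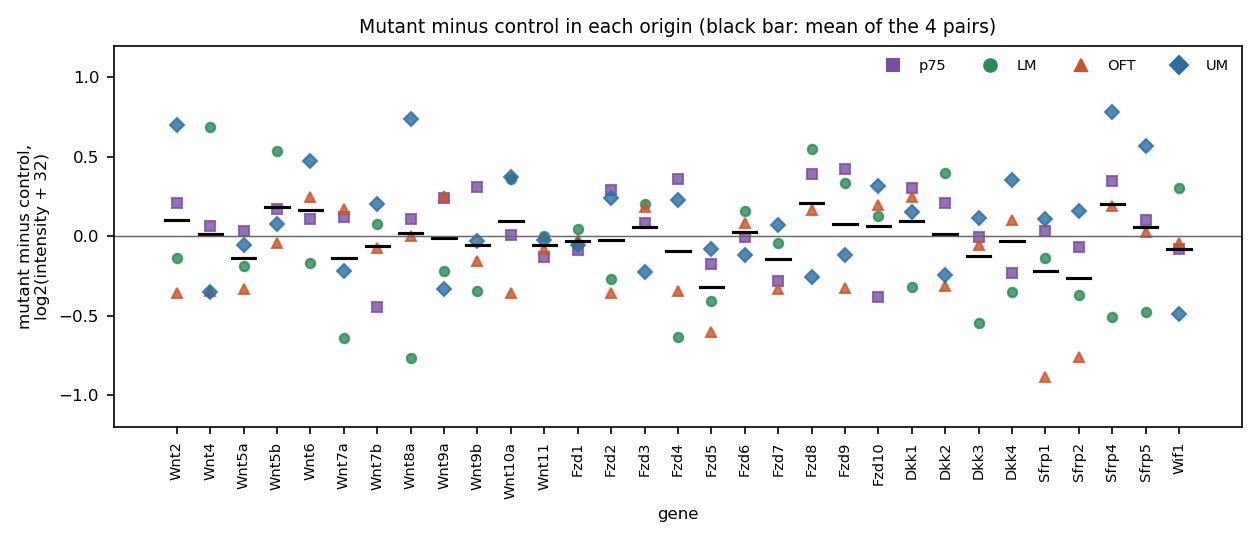
Mutant minus control difference of log2(intensity + 32) (y axis) for each of the 31 tested members (x axis), 1 point per origin, with a black bar at the mean of the 4 pairs. Fzd5 lies below 0 in all 4 origins, with a mean of -0.32, and no other member keeps 1 sign in all 4.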

How the data were processed

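The deposited tables hold 1 linear intensity per probe set and array, for 45101 probe sets and 8 arrays. The software and scaling that the authors used are not given in the sources used here. A trimmed mean of 150 on each of the 8 arrays shows that the values had been scaled to 1 target. Gene names came from the platform annotation. Of the probe sets 34945 had exactly 1 gene, and 932 with several genes were left out. Updating symbols through the GRCm38.p6 gene table changed 0 of them. Each gene took its brightest probe set by mean log2(intensity + 32) over the 8 arrays.

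The linear model (limma 3.58.1, R 4.3.3) covered all 13543 genes past the filter and held origin and genotype as terms. It left 3 residual degrees of freedom, to which eBayes added 9.18. P-values were adjusted over all genes by the Benjamini-Hochberg method. Values after ± are moderated SE. In every comparison the error is how the mutant minus control difference varies between origins. Control and mutant arrays were paired by origin, and their deviations from the genotype means correlated at 0.616 to 0.877. Each called member is named with its values, and of each pathway list up to 4 called genes per comparison with the largest difference. The members, the pathway and marker lists and the comparisons were chosen with earlier results of these data known. Nothing says that arrays came from separate animals beyond the origin and genotype labels. The number of arrays limits the precision. Alternatives were pseudocounts of 1 and 16, no filter, quantile normalization, the mean of all probe sets, no x_at or s_at probe sets, a trend in eBayes, no origin term, and leaving out each array or pair.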

Additional observations from a re-analysis of the deposited data

Results flagged for a closer look

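Wnt8a, a ligand of early axis formation, moved in opposite directions in 2 origins. Mutant minus control it was 0.74 in UM and -0.76 in LM (log2 of intensity + 32). The intensities were 1.83 in the control and 24.4 in the mutant of UM, and 27.6 in the control and 3.06 in the mutant of LM. With 1 array per genotype in each origin the difference between them was not tested, and no value lies far above the filter intensity of 19.4.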

How the results depend on the processing

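Among the called members, 172 of 192 alternative values for OFT kept the direction and the call, and 20 kept the direction only. For LM against UM these were 36 and 12 of 48, and for p75-sorted cells 177 and 32 of 210. The remaining value reversed: Sfrp1 in p75-sorted cells came to -0.19 with the mean of all probe sets. Of the pathway genes, Tle3 in p75-sorted cells reversed to -0.18 with that mean, and Csnk1d to -0.032 without x_at and s_at probe sets. The cause was not tested. With 1 array left out, 5 to 13 members were called in OFT, 0 to 3 in LM against UM and 7 to 15 in p75-sorted cells. The low ends came without the OFT control, the UM control and the p75 mutant. A pseudocount of 1 left 0 called members in LM against UM and 8 in p75-sorted cells. Mutant against control stayed at 0 members in every alternative, from 0 to 0 with 1 array left out.

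Calls over all genes moved by more than 1.5 times too. In OFT 2060 became 631 without the OFT control, 1032 without the OFT mutant and 1003 with a pseudocount of 1. In LM against UM 210 became 64 with a pseudocount of 1, 130 without the LM control, 111 without the UM control and 117 without the UM mutant. In p75-sorted cells 6380 became 3238 without the p75 mutant. Mutant against control went from 0 genes to 1, no member, without the LM pair or either of its arrays. Genes near background, Dkk4, Wnt2 and Wnt8a among them, have differences set partly by the pseudocount.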

Other observations

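The pathway lists in p75-sorted cells, relative to the 3 other origins, are read beside the 47.1% of all genes called by limma there. Of 11 secretion and coreceptor genes 2 rose and 7 fell. Wls, which carries Wnts to the cell surface, was at -1.36, the coreceptor Ptk7 at -1.13 and the glypican Gpc3 at -0.88, while Porcn, which acylates Wnts, was at 1.29. Of 7 R-spondin axis genes 3 fell, Rspo2 at -1.67, Lgr4 at -0.95 and Lgr5 at -0.85. Of 7 other antagonists, Frzb and Sostdc1 fell, at -2.25 and -2.21, and Cthrc1 and Draxin rose, at 1.27 and 1.11. Of 11 planar polarity genes 7 rose and 1 fell, led by the cadherins Celsr2 at 1.94, Celsr3 at 1.22 and Celsr1 at 0.70 and by Scrib at 1.09.

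Of 15 feedback and target genes 4 rose and 5 fell. The Dishevelled antagonists Nkd1 and Nkd2 rose by 1.07 and 1.05, and Dact3 and Lef1 were at -0.98 and -0.85. Of 13 cytoplasmic core genes 5 rose and 2 fell, with Csnk1e at 1.06, Ctnnbip1 at -0.91, Csnk1d at 0.89 and Axin1 at 0.73. Of 11 nuclear genes 5 rose and 3 fell, with Tle1 at 1.14, Bcl9 at -1.10, Tle3 at 0.91 and Pygo2 at 0.90. With the mean of all probe sets, limma adjusted p was 0.058 for Ctnnbip1, 0.14 for Csnk1d, 0.94 for Axin1 and 0.23 for Tle3. Without the p75 control it was 0.27 for Gpc3, at -0.36, and 0.16 for Celsr1, and without the p75 mutant 0.11 for Csnk1d and 0.21 for Axin1, at 0.41. The mean of all probe sets also moved called values: Wls to -0.60, Rspo2 to -0.95, Lgr4 to -0.55, Lgr5 to -0.48, Draxin to 0.45, Csnk1e to 0.69, Tle1 to 0.61, Nkd1 to 0.52 and Dact3 to -0.32. With a pseudocount of 1 Celsr3 was at 2.81 and Draxin at 1.69, and Gpc3 and Celsr1 had adjusted p of 0.060 and 0.054. Gpc3 was at -1.40 without the p75 mutant. The part of the cell type markers given above for p75-sorted cells was not tested.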
